A study of Homo sapiens with 12 samples.

Results

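The 9 genes described here encode proteins of the nuclear lamina and its membrane (LMNA, LMNB1, LMNB2, LBR, TMPO, EMD), the chromatin-bridging factor BANF1 and the high-mobility-group box proteins HMGB1 and HMGB2. They were chosen by symbol, as genes whose products are linked to nuclear architecture and cellular senescence, and all 9 were among the 14828 genes of the expression table and among the 14624 that passed the filter on low values. The cells were 22Rv1, a human prostate carcinoma line, stably carrying a lentiviral construct that expresses, under doxycycline, either a nontargeting control (shNT) or 1 of 2 shRNAs against CENPA, the centromeric histone H3 variant (shCENPA1 and shCENPA2). All groups, shNT included, received doxycycline at 2 µg/ml for 72 h. Poly(A) RNA was sequenced in 2 libraries per shRNA, each run in 2 lanes, and the lanes of a library were averaged, so that n = 2 libraries per shRNA. Nothing in the labels says that the libraries came from separate cultures, so the p-values measure the spread between these libraries, which may be technical.

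Lamins are intermediate filament proteins that form a meshwork under the inner nuclear membrane. The B-type lamins, encoded by LMNB1 and LMNB2, stay farnesylated and attached to the membrane, whereas A-type lamins, encoded by LMNA, also occur in the nuclear interior. LBR, TMPO (lamina-associated polypeptide 2) and EMD (emerin) link the lamina and peripheral chromatin to the membrane. BANF1 binds DNA and the LEM domain that TMPO and EMD share. HMGB1 and HMGB2 are abundant proteins that bend DNA in chromatin. Loss of LMNB1 mRNA is widely used as a marker of senescence in cultured fibroblasts, and loss of HMGB2 from chromatin and release of HMGB1 from the nucleus have also been described in senescent cells.

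The libraries held 79172294 to 133074655 reads on genes, and each member rested on 3534 reads (LMNB1 in an shCENPA2 library) to 48380 reads (HMGB2 in an shNT library), so that the number of libraries and not depth limited the precision. The largest difference between the lanes of 1 library was 0.08 log2 units for a member, against 0.37 between the libraries of 1 shRNA. CENPA itself had a log2 RPKM of 2.46 and 2.18 with shNT, 0.50 and 0.58 with shCENPA1, and -0.47 and -0.41 with shCENPA2. Every knockdown library was thus below both shNT libraries, and those of shCENPA2 were below those of shCENPA1. Of the prostate epithelial markers checked, HOXB13, a prostate homeobox factor, had a mean log2 RPKM of 7.84 with shNT, and KRT8, a luminal keratin, 5.80. KLK3, which encodes prostate-specific antigen, was low, at a mean log2 RPKM of -0.48 with shNT. Of 8 markers of stromal, immune and endothelial cells, 2 were measured. COL1A1, a fibroblast collagen, had a mean log2 RPKM of 0.03, 0.12 and 0.15 with shNT, shCENPA1 and shCENPA2. DCN, a stromal proteoglycan, rose from -3.05 to -1.11 and -1.57. Its part in the results below was not tested.

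With shNT, all 9 members were well expressed on the length-scaled RPKM scale, and their order ran from HMGB2 (mean log2 RPKM 7.37, 165 RPKM, above 99.0% of the genes tested) to LBR (3.99, 15.9 RPKM, above 79.3%). BANF1 followed HMGB2 at 6.06, and its libraries, at 5.93 and 6.19, did not overlap with those of any other member. HMGB1 (5.26) was above LMNB1 (5.17) in both libraries, but neither could be ordered against EMD (5.25), whose libraries at 5.15 and 5.35 enclosed theirs. TMPO (5.02) lay below LMNB1 in both libraries. LMNA at 4.80 and 4.93 and LMNB2 at 4.67 and 4.89 overlapped, and LBR was below every other member. The plot of levels by library gives each of these values.

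**Figure D1:**
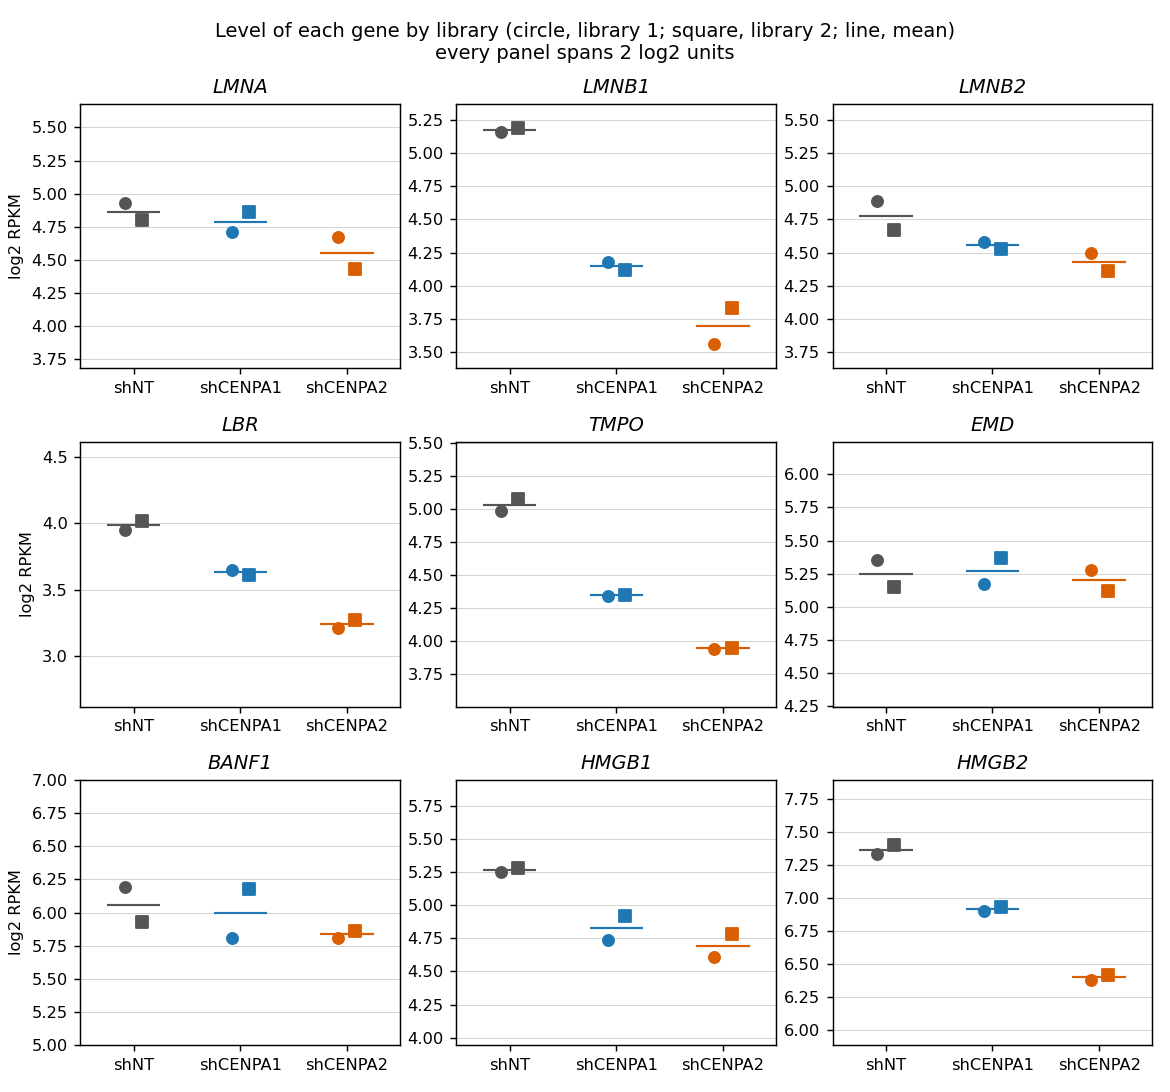
Level of each of the 9 genes in log2 RPKM (vertical axis) in the libraries of shNT, shCENPA1 and shCENPA2 (horizontal axis), with a circle for library 1, a square for library 2, a line at the mean of 2 libraries, and the same 2-unit span in every panel. LMNB1, LMNB2, TMPO, LBR and HMGB2 step down from shNT to shCENPA1 to shCENPA2 without overlap, whereas the EMD libraries of all 3 groups overlap. LMNB2 did not pass the test with shCENPA1 (limma adjusted p = 0.234). How many of all genes step down in this way is not given here.

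The promoters of LMNB1, TMPO and LBR, which fell with both shRNAs, are shown beside that of EMD, which did not pass the test with either shRNA, because many genes of the late cell cycle carry short promoter elements known as the cell cycle genes homology region (CHR) and the CCAAT box. The sequences are from RefSeq (GRCh38.p14) and give the 250 bases before an annotated start site, 5′ to 3′ on the strand of the gene. Capitals mark the letters TTTGAA or TTTAAA (CHR), CCAAT (the CCAAT box), and TTCCCGC or TTGGCGC (E2F sites), on either strand.
LMNB1, chr5:126776886-126777135, plus strand: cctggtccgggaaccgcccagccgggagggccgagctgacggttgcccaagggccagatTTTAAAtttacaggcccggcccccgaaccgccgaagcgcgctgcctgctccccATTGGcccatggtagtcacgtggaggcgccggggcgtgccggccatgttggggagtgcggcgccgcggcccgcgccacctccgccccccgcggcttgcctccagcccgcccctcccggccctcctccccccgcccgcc
TMPO, chr12:98515323-98515572, plus strand: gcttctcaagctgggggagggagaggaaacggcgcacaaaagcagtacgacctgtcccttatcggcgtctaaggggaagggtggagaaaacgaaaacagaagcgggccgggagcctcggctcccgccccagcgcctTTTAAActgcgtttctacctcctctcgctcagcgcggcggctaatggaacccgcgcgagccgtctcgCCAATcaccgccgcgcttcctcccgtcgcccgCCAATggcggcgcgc
LBR, chr1:225428822-225429071, minus strand: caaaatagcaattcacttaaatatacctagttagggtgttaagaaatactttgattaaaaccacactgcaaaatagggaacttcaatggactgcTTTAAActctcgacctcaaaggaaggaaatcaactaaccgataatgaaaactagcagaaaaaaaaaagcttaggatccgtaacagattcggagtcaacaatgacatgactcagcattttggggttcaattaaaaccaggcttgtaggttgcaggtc
EMD, chrX:154379045-154379294, plus strand: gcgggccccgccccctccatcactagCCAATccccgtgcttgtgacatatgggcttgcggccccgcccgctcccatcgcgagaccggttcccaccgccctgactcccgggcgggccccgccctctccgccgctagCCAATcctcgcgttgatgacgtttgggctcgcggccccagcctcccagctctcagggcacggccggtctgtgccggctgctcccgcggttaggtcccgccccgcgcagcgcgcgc

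The table of promoters holds 14 windows of 300 bases (250 before and 50 after a start site) for 8 of the 9 members, and none for HMGB2. The windows of TMPO overlap each other. TTTAAA was present in 7 of the 14 windows, of LMNA, LMNB1, LBR, TMPO and BANF1, against 12.2% of 35116 promoter windows in the table and 8.6% of the 15130 windows of genes with expression values. In the LMNB1 window printed above it starts at position -191 from the start site, in that of TMPO at position -114, and in that of LBR at position -156. LMNB1 has another window, not printed, whose start site is that of the gene span given below. That window holds TTTAAA at position -225 and no CCAAT box, and the printed window lies within the gene span. The members holding TTTAAA thus include LMNA and BANF1, which did not pass the test with either shRNA. HMGB1, which fell with both shRNAs and is not printed above, holds TTTAAA in none of its windows. TTTGAA was found in a window of LMNB2 and of HMGB1 (15.2% of all windows), and CCAAT in 7 of the 14 windows (34.6% of all windows). EMD holds CCAAT at positions -224 and -115 and neither CHR spelling. TTCCCGC was found in 1 window each of LMNA and BANF1 (6.6% of all windows), and TTGGCGC in 0 member windows (3.0% of all windows). TTTAAA reads the same on both strands and was counted once, and TTGGCGC can share letters with a reversed CCAAT box. These matches describe the letters of the windows, and no binding was measured.

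Against shNT, 5 of the 9 members were lower with shCENPA1 (LMNB1, TMPO, HMGB2, HMGB1 and LBR) and 6 of 9 with shCENPA2 (the same 5 and LMNB2), by limma across the 14624 genes with a Benjamini-Hochberg adjusted p under 0.05. Of all genes tested, 4.45% were lower with shCENPA1 and 10.5% with shCENPA2. No member was higher with either shRNA (0 of 9 in each, and 0 also at an unadjusted p under 0.05), where 2.69% and 8.05% of all genes were higher. Without any 1 library of shNT or shCENPA1, 2 members were lower with shCENPA1, LMNB1 and TMPO. The median log2 fold change of the 9 members was -0.36 with shCENPA1 and -0.57 with shCENPA2, beside 0.00 and 0.01 over all genes. LMNB1 was the only member at least 2-fold lower with both shRNAs, a call that 1.7% of all genes received. With shCENPA2 alone, LMNB1 and TMPO were at least 2-fold lower, beside 4.45% of all genes, and with shCENPA1 LMNB1 alone was, beside 1.83%. The comparisons share the shNT libraries, so the values of each are given side by side. A single gene cannot reach 0.05 in an exact permutation of 2 against 2 libraries, so each call depends on limma's variance estimate, pooled over genes. In bulk libraries, fewer cells of a type or cycle phase and less RNA per cell cannot be told apart.

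**Figure D2:**
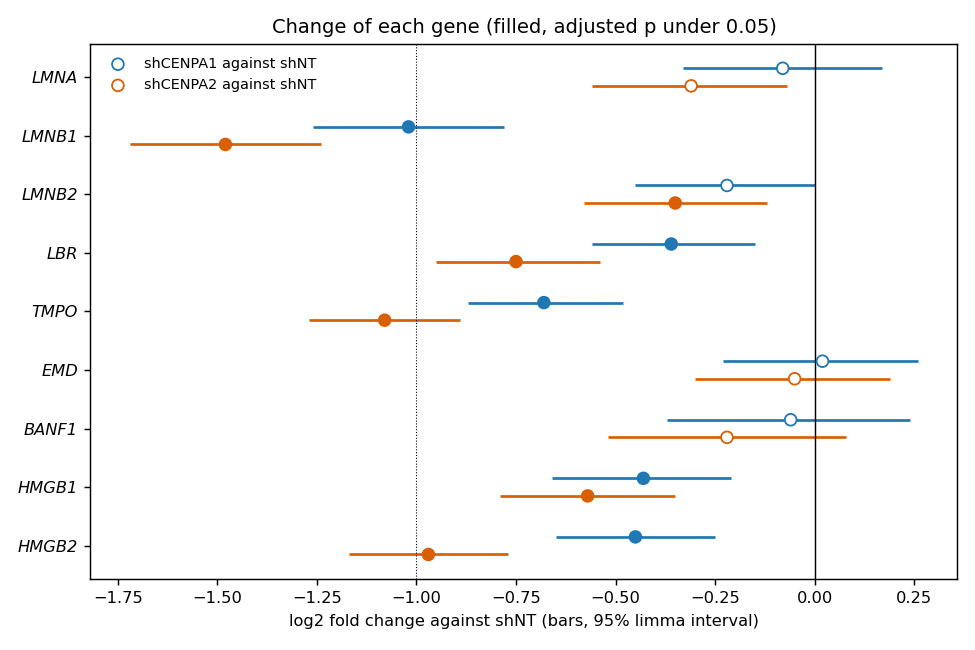
Log2 fold change against shNT (horizontal axis) of the 9 genes (vertical axis) for shCENPA1 in blue and shCENPA2 in orange, with bars for the 95% limma interval, filled points for an adjusted p under 0.05, and a dotted line at a 2-fold decrease. LMNB1 lies furthest to the left, at -1.02 and -1.48, while LMNA, EMD and BANF1 have open points with both shRNAs.

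LMNB1 (chromosome 5, 126776623 to 126837020 of GRCh38, plus strand), which encodes lamin B1, had a log2 RPKM of 5.16 and 5.19 with shNT, 4.18 and 4.12 with shCENPA1, and 3.56 and 3.83 with shCENPA2. In RPKM these were 35.7 and 36.4, then 18.2 and 17.4, then 11.8 and 14.2. The 3 groups did not overlap. LMNB1 mRNA fell by 50.7% with shCENPA1 (log2 fold change -1.02, SE (standard error) 0.11, limma adjusted p = 0.000535) and fell by 64.1% with shCENPA2 (-1.48, SE 0.11, adjusted p = 2.69e-05). Only 2.03% and 2.02% of all genes had a lower fold change. Without the second shCENPA1 library the change with shCENPA1 was above -1, so that 0 members were 2-fold lower with both shRNAs, although its test still passed.

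LMNB2 (chromosome 19, 2427638 to 2456959, minus strand), the gene of the second B-type lamin, changed less. Its log2 RPKM was 4.89 and 4.67 with shNT, 4.58 and 4.53 with shCENPA1, and 4.50 and 4.36 with shCENPA2. The shNT libraries were the highest, but lay further apart than those of LMNB1. The log2 fold change was -0.22 with shCENPA1 (95% interval from -0.45 to 0.00, limma adjusted p = 0.234) and -0.35 with shCENPA2 (adjusted p = 0.0411). The latter call was lost when any 1 of the 6 libraries was left out, with a log2 fold change from -0.46 to -0.24.

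LMNA (chromosome 1, 156082573 to 156140081, plus strand), from which lamins A and C are spliced, had a log2 RPKM of 4.93 and 4.80 with shNT, 4.71 and 4.86 with shCENPA1, and 4.67 and 4.43 with shCENPA2. The shCENPA1 libraries overlapped with shNT, and those of shCENPA2 were below it. The log2 fold changes of -0.08 (95% interval from -0.33 to 0.17, limma adjusted p = 0.714) and -0.31 (from -0.56 to -0.07, adjusted p = 0.0775) did not pass the test.

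The balance of the lamin mRNAs was compared within each library, which removes the scaling between libraries. LMNB1 minus LMNA in log2 RPKM was 0.22 and 0.39 with shNT, -0.53 and -0.74 with shCENPA1, and -1.12 and -0.61 with shCENPA2. LMNB1 was the more abundant of the pair in both shNT libraries and the less abundant in all 4 knockdown libraries. The mean difference of knockdown to shNT libraries was -1.05, with a two-sided exact permutation p of 0.0667, the smallest that 15 arrangements of 4 against 2 libraries allow. As a share of the summed RPKM of the 3 lamin genes, LMNB1 made up 37.2% and 40.6% with shNT, 26.6% and 25% with shCENPA1, and 19.7% and 25.2% with shCENPA2. The sum itself was 95.8 and 89.8 RPKM with shNT, 68.3 and 69.6 with shCENPA1, and 59.9 and 56.4 with shCENPA2. LMNA and LMNB2 thus took larger shares of a smaller sum in every knockdown library.

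**Figure D3:**
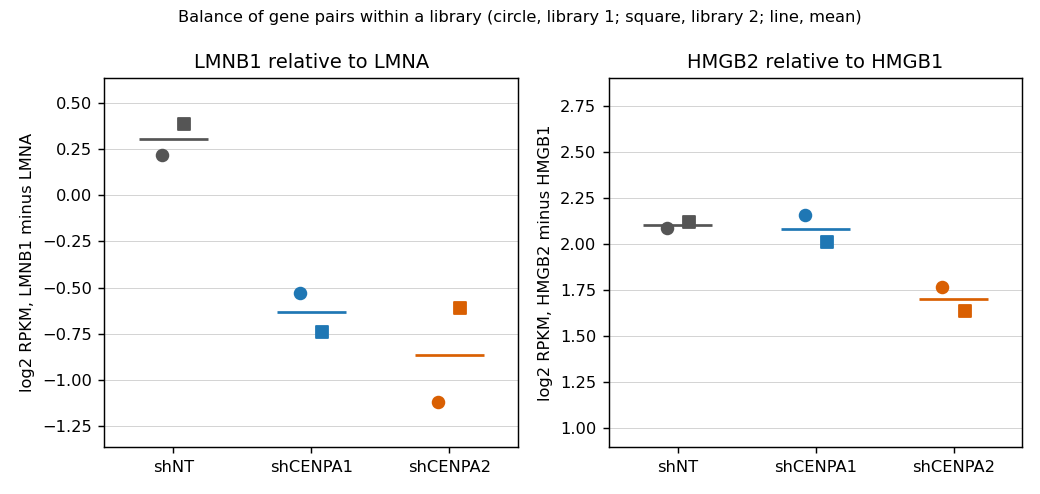
Difference in log2 RPKM between LMNB1 and LMNA (left) and between HMGB2 and HMGB1 (right) within each library (vertical axes, both spanning 2 units) for shNT, shCENPA1 and shCENPA2, with a circle for library 1, a square for library 2 and a line at the mean. LMNB1 minus LMNA is above 0 in both shNT libraries and below 0 in all 4 knockdown libraries, while HMGB2 minus HMGB1 is lower than with shNT only in the shCENPA2 libraries and 1 shCENPA1 library.

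Of the inner nuclear membrane genes, TMPO and LBR fell with both shRNAs and EMD did not pass the test with either. TMPO (chromosome 12, 98515579 to 98550351, plus strand) encodes several LAP2 isoforms, some of them membrane proteins and some nucleoplasmic. Its log2 RPKM was 4.98 and 5.07 with shNT, 4.34 and 4.35 with shCENPA1, and 3.94 and 3.95 with shCENPA2. Libraries of 1 shRNA were close and the groups were well apart. TMPO fell by 37.4% with shCENPA1 (log2 fold change -0.68, SE 0.08, limma adjusted p = 0.00147) and fell by 52.8% with shCENPA2 (-1.08, SE 0.08, adjusted p = 4.47e-05). The antisense transcript TMPO-AS1 (chromosome 12, 98512973 to 98516422, minus strand) overlaps the start of TMPO. Its log2 fold changes were -0.98 (limma adjusted p = 0.0134) and -1.37 (adjusted p = 0.00102). The library kit kept the strand, but the setting used for counting is not given in the sources used here, so reads of the overlap may have been assigned to either gene.

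LBR (chromosome 1, 225401502 to 225428925, minus strand), the lamin B receptor, which also acts as a sterol reductase, had a log2 RPKM of 3.95 and 4.02 with shNT, 3.65 and 3.61 with shCENPA1, and 3.21 and 3.27 with shCENPA2. The groups did not overlap. LBR fell by 22.0% with shCENPA1 (log2 fold change -0.36, SE 0.09, limma adjusted p = 0.0464) and fell by 40.4% with shCENPA2 (-0.75, SE 0.09, adjusted p = 0.000529). The call with shCENPA1 was near the threshold and was lost in 10 of 19 alternative analyses, with a log2 fold change from -0.40 to -0.32 in all of them, while the call with shCENPA2 was kept in 19 of 19.

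EMD (chromosome X, 154379273 to 154381574, plus strand) encodes emerin. Its log2 RPKM of 5.35 and 5.15 with shNT, 5.17 and 5.37 with shCENPA1, and 5.28 and 5.12 with shCENPA2 overlapped between all groups. The log2 fold changes were 0.02 (95% interval from -0.23 to 0.26, limma adjusted p = 0.95) and -0.05 (from -0.30 to 0.19, adjusted p = 0.780). These intervals leave out a decrease of the size seen for TMPO, at -0.68 and -1.08.

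BANF1 (chromosome 11, 66002228 to 66004149, plus strand), the barrier-to-autointegration factor that gathers membrane on chromosomes after mitosis, had a log2 RPKM of 6.19 and 5.93 with shNT, 5.81 and 6.18 with shCENPA1, and 5.81 and 5.86 with shCENPA2. The shCENPA1 libraries were the furthest apart of any member and shCENPA1 overlapped with shNT. The log2 fold changes of -0.06 (95% interval from -0.37 to 0.24, limma adjusted p = 0.822) and -0.22 (from -0.52 to 0.08, adjusted p = 0.293) did not pass the test. VRK1, the kinase that phosphorylates BANF1 and releases it from DNA at mitosis, fell with both shRNAs, by 0.70 and 0.96 on the log2 scale (limma adjusted p = 0.0206 and 0.00189).

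HMGB1 (chromosome 13, 30456704 to 30617597, minus strand) had a log2 RPKM of 5.25 and 5.28 with shNT, 4.74 and 4.92 with shCENPA1, and 4.61 and 4.78 with shCENPA2. Both knockdown groups were below shNT and overlapped with each other. HMGB1 fell by 25.8% with shCENPA1 (log2 fold change -0.43, SE 0.10, limma adjusted p = 0.0315) and fell by 32.6% with shCENPA2 (-0.57, SE 0.10, adjusted p = 0.00387). HMGB1 has processed pseudogenes of near-identical sequence that can share its reads. HMGB1P6, the only 1 of the 3 measured that passed with both shRNAs, had log2 fold changes of -0.45 and -0.70 (limma adjusted p = 0.0137 and 0.000566) on 1013 to 2136 reads, against 15596 to 31729 reads for HMGB1.

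HMGB2 (chromosome 4, 173331376 to 173334432, minus strand), the form that is highest in dividing cells, had a log2 RPKM of 7.33 and 7.40 with shNT, 6.90 and 6.93 with shCENPA1, and 6.38 and 6.42 with shCENPA2. In RPKM these were 161 and 169, then 119 and 122, then 83.2 and 85.7. The libraries of each shRNA were close together and the 3 groups were apart. HMGB2 fell by 26.9% with shCENPA1 (log2 fold change -0.45, SE 0.09, limma adjusted p = 0.0157) and fell by 48.9% with shCENPA2 (-0.97, SE 0.09, adjusted p = 0.000108). The calls of HMGB1 and HMGB2 with shCENPA1 were each lost when any 1 library of shNT or shCENPA1 was left out (log2 fold changes from -0.52 to -0.34 and from -0.49 to -0.42), while both calls with shCENPA2 were kept.

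HMGB2 minus HMGB1 in log2 RPKM was 2.09 and 2.12 with shNT, 2.16 and 2.01 with shCENPA1, and 1.77 and 1.64 with shCENPA2. With shCENPA1 the balance overlapped with shNT, and with shCENPA2 it was lower. Over the knockdown libraries of both shRNAs the mean difference to shNT was -0.21, with a two-sided exact permutation p of 0.267. The summed RPKM of the pair was 199 and 208 with shNT, 146 and 153 with shCENPA1, and 108 and 113 with shCENPA2.

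Between the CENPA-targeted shRNAs, 1 of the 9 members differed, beside 1.42% of all genes in either direction. HMGB2 was lower with shCENPA2 by a log2 difference of -0.52 (SE 0.09, 95% interval from -0.72 to -0.32, limma adjusted p = 0.0268). The next were TMPO (-0.41, interval from -0.60 to -0.22, adjusted p = 0.0560), LMNB1 (-0.46, from -0.70 to -0.22, adjusted p = 0.0789) and LBR (-0.39, from -0.59 to -0.18, adjusted p = 0.0863), none of which passed after adjustment over all genes. For these 4 genes both shCENPA2 libraries were below both shCENPA1 libraries, as they were for CENPA itself. The same held for LMNA and LMNB2, which were far from passing. The share of all genes separated in this way is not given here. HMGB1 differed by -0.14 (from -0.36 to 0.09, adjusted p = 0.607), and LMNA, LMNB2, EMD and BANF1 by -0.23, -0.12, -0.07 and -0.16 (adjusted p from 0.397 to 0.837). The HMGB2 call was lost when any 1 of the 6 libraries was left out, with a log2 difference from -0.54 to -0.49. Without the second shCENPA2 library the 1 member that passed was LMNB1, at -0.59 (adjusted p = 0.0423), and without any other library 0 members passed.

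Other genes of the nuclear envelope and of lamin processing are given beside the 4.45% of all genes that were lower with shCENPA1 and the 10.5% lower with shCENPA2. Of 30 measured genes for LINC complexes, other membrane proteins, lamin-processing enzymes and chromatin partners of the lamina, 3 were lower with shCENPA1, 5 were lower with shCENPA2 and 0 were higher with either, with a median log2 fold change of -0.02 and -0.07. NEMP1, an inner nuclear membrane protein, fell by 0.83 and 0.96 on the log2 scale (limma adjusted p = 0.00165 and 0.000334), VRK1 as given above, and CBX5, which encodes the heterochromatin protein HP1 alpha that LBR binds, by 0.52 and 0.42 (adjusted p = 0.0371 and 0.0428). Of 29 nucleoporin genes, 3 were lower with shCENPA1 and 6 with shCENPA2, with a median of -0.16 and -0.23. These included NDC1, a transmembrane nucleoporin (-0.70 and -0.55, limma adjusted p = 0.00229 and 0.00387), and the scaffold nucleoporins NUP107 (-0.48 and -0.61, adjusted p = 0.0296 and 0.00426) and NUP155 (-0.49 and -0.45, adjusted p = 0.0318 and 0.0236). Without 1 library at a time, the lower genes numbered as few as 1 and 2 in both lists, reached when either shNT library was left out. Of the genes named, CBX5 and NUP155 then lost both calls, and VRK1 and NUP107 lost that with shCENPA1, as they also did without either shCENPA1 library. Among 11 other high-mobility-group and related genes, 1 was lower with shCENPA1 and 2 with shCENPA2. HMGN2, a nucleosome-binding protein with a mean log2 RPKM of 8.02 with shNT, fell by 0.62 and 0.83 (limma adjusted p = 0.00819 and 0.000771). Its call with shCENPA1 was lost without either shNT library or the first shCENPA1 library, which left 0 lower genes in that list.

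Markers of arrest and senescence outside the nucleus moved in both directions. Of 17 measured genes of cell cycle inhibitors, lysosomal enzymes and other senescence markers, 2 were lower and 2 higher with shCENPA1, and 5 were lower and 2 higher with shCENPA2, with a median log2 fold change of -0.06 and -0.11, where 4.45% of all genes were lower and 2.69% higher with shCENPA1, and 10.5% and 8.05% with shCENPA2. Without the first shNT library, 0 were lower with shCENPA1 and 1 with shCENPA2. Without the second they numbered 0 and 2, and without the first shCENPA2 library 3 were lower with shCENPA2. Leaving out either shCENPA1 library gave 0 lower with shCENPA1. The genes higher with both shRNAs were GLB1, which encodes lysosomal beta-galactosidase (0.39 and 0.57, limma adjusted p = 0.0425 and 0.00312), and FUCA1, a lysosomal fucosidase (0.41 with each, adjusted p = 0.0341 and 0.0172). The calls of both with shCENPA1 were lost without any 1 library of shNT or shCENPA1, so that 0 genes of the list were then higher. The FUCA1 call with shCENPA2 was lost without either shNT library or the second shCENPA2 library, which left 1 higher gene. CDKN2C, an inhibitor of CDK4 and CDK6, fell by 0.45 and 0.56 (adjusted p = 0.0233 and 0.00372), with the shCENPA1 call lost in the same way and the shCENPA2 call lost without the first shNT library. The inhibitors CDKN1A and CDKN2A, singled out after their values were seen, had log2 fold changes of -0.47 and -0.23 (adjusted p = 0.0307 and 0.185) and of 0.15 and 0.19 (adjusted p = 0.487 and 0.281). Of 44 listed genes of the senescence-associated secretory phenotype, only 16 were measured. Of these, 3 were lower and 3 higher with shCENPA1, and 4 were lower and 4 higher with shCENPA2. These counts stand beside the same shares of all genes, and the median was 0.15 and -0.02. Without either shNT library or the first shCENPA2 library, 2 were higher with shCENPA2. GDF15, a stress-responsive cytokine of the TGF-beta family, rose by 1.08 and 1.79 (limma adjusted p = 0.000447 and 1.27e-05). The insulin-like growth factor binding proteins IGFBP3 (-1.43 and -3.20, adjusted p = 0.00115 and 7.38e-06) and IGFBP5 (-2.18 and -2.19, adjusted p = 0.00373 and 0.00166) and the glycoprotein hormone STC1 (-1.45 and -1.35, adjusted p = 0.0138 and 0.00904) fell. Without the second shCENPA1 library, 1 of the 3 was lower with shCENPA1.

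The members that fell were set beside genes of the cell cycle, in lists that hold no member. Absence from these lists does not mean that a member is not itself a cell cycle gene. Of 41 G1/S genes, 32 were lower with shCENPA1 and 35 with shCENPA2, with a median log2 fold change of -0.89 and -1.25, and 0 were higher. Ranked by the smaller of their changes with both shRNAs, the first G1/S genes were CLSPN, a checkpoint adaptor (-1.57 and -1.93, limma adjusted p = 0.000954 and 0.000122), E2F8, a repressor of the E2F family (-1.53 and -1.88), EXO1, an exonuclease (-1.38 and -2.0), and DTL, which marks CDT1 for degradation (-1.30 and -1.71). Of 50 G2/M genes, CENPA included, 44 and 46 were lower, with a median of -1.22 and -1.58, and 0 were higher. They included DLGAP5, a spindle protein (-1.49 and -1.64, adjusted p = 0.000195 and 3.58e-05), HMMR, a centrosomal and hyaluronan-binding protein (-1.45 and -1.80), and the proliferation marker MKI67 (-1.40 and -1.66). Of the 49 G2/M genes other than CENPA, 36 had a lower fold change than LMNB1 with shCENPA1 and 30 with shCENPA2, whereas of the 41 G1/S genes 16 and 13 did. For TMPO the numbers were 41 and 36 G2/M genes and 25 and 24 G1/S genes. For HMGB2 they were 43 and 39 G2/M genes and 32 and 25 G1/S genes, and for LBR 43 and 42 G2/M genes and 37 and 28 G1/S genes. For HMGB1 they were 43 and 43 G2/M genes and 33 and 32 G1/S genes. For LMNB2, which passed with shCENPA2 only, they were 44 G2/M genes and 37 G1/S genes with that shRNA. All G2/M genes had a lower fold change than EMD with both shRNAs (49 of 49). CBX5 is counted in both the lamina and the G2/M list.

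**Figure D4:**
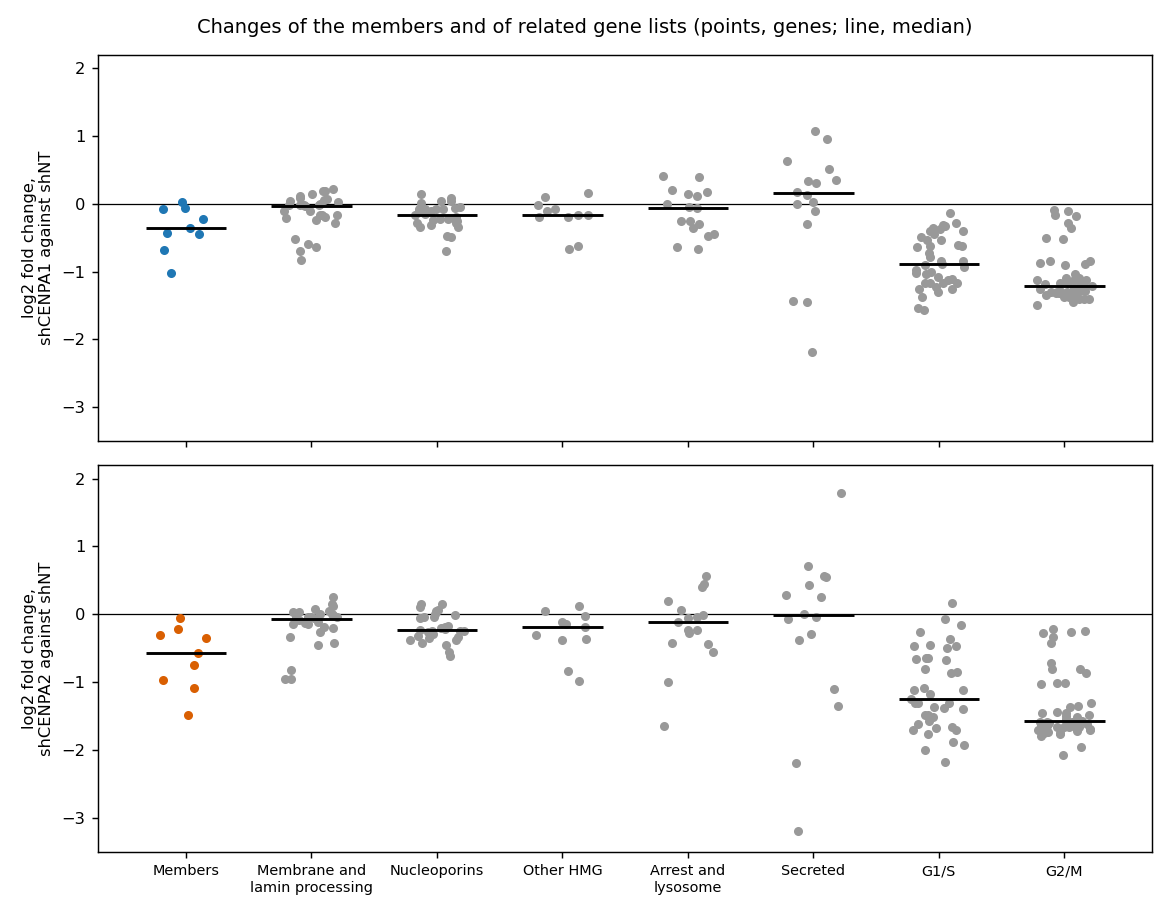
Log2 fold change against shNT (vertical axes) with shCENPA1 (top) and shCENPA2 (bottom) of the 9 members in colour and of the genes of 7 related lists in grey (CENPA left out of G2/M), with a line at each median. The member medians of -0.36 and -0.57 lie between those of the nucleoporins (-0.16 and -0.23) and of the G1/S genes (-0.89 and -1.25).

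The genes whose profile over the 6 libraries was nearest to that of LMNB1, by root mean square distance of log2 values centred on each gene's mean, were PARPBP (0.057), TMPO-AS1 (0.060), WEE1 (0.065), RTKN2 (0.073) and FANCI (0.086). PARPBP and FANCI act in DNA repair, and WEE1 is the kinase that holds CDK1 inactive. Because these genes were picked by likeness over the same libraries, their log2 fold changes had to be near the -1.02 and -1.48 of LMNB1. They ran from -1.05 to -0.95 with shCENPA1 and from -1.44 to -1.37 with shCENPA2. For HMGB2 the nearest were C1orf226 (0.040), FKBP5 (0.045), a co-chaperone of steroid receptors, SOAT1 (0.053), which esterifies cholesterol, EGLN3 (0.056), a prolyl hydroxylase, and HBE1 (0.059), an embryonic globin. Their log2 fold changes, bound by the same choice to be near those of HMGB2, ran from -0.51 to -0.44 and from -1.07 to -0.94. None of these 10 genes is in the G1/S or G2/M list. Likeness over 6 libraries of 3 groups describes these profiles only, since many of the 14624 genes can come close by the number compared.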

How the data were processed

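RNA of 22Rv1 cells with shNT, shCENPA1 or shCENPA2 was sequenced in 2 libraries per shRNA. The authors used Trim Galore, STAR (hg38) and HTSeq in turn for trimming, alignment and counting, and deposited log2 RPKM per run. Versions, and the strand setting of HTSeq, are not given in the sources used here. The 2 lanes of a library, which the labels number as separate replicates, were averaged. The filter kept genes averaging -3 or more in log2 RPKM over the libraries. limma 3.58.1 (R 4.3.3, trend in the variance, 3 groups in 1 fit) gave fold changes and p-values, adjusted by Benjamini-Hochberg over all genes tested. No constant was added to the deposited values, which hold a prior count. Depth came from the reads behind the deposited values, whose spacing gave whole numbers for 14828 of 14828 genes (within 3.5e-08 of a read). Both scripts were tested on simulated data. Positions are from GENCODE 44 on GRCh38 (hg38).

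The members and the lists were chosen with earlier results of these data known. Genes named are the members, CENPA, at most 4 genes of each list with an adjusted p under 0.05 with both shRNAs in the same direction (ranked by the smaller change) and the 5 nearest profiles of LMNB1 and of HMGB2, besides near-identical or overlapping genes and the cell type markers COL1A1, HOXB13, KRT8 and KLK3. CDKN1A and CDKN2A were named outside this rule after their values were seen. Some genes of the prostate list are not reported here. The authors called genes with edgeR on counts, whereas limma was used here because the deposited unit is log2 RPKM. No run was left out.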

Additional observations from a re-analysis of the deposited data

Results flagged for a closer look

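By the limma test of the difference between shCENPA2 and shCENPA1, 2 of 41 G1/S genes and 5 of 50 G2/M genes, CENPA included, were lower with shCENPA2. Of the 16 secretory genes, 2 were lower and 1 was higher, beside 1.42% of all genes in either direction. Among the members, CENPA and the genes named from the lists by the rule above, the following changed by different amounts. Others of the lists that passed are not named. HMGB2 was lower with shCENPA2 by a log2 difference of -0.52 (adjusted p = 0.0268), from mean log2 RPKM values of 6.92 with shCENPA1 and 6.40 with shCENPA2. CENPA, the targeted gene, was lower by -0.98 (adjusted p = 0.0209), from 0.54 and -0.44. IGFBP3 was lower by -1.77 (adjusted p = 0.00185), from 5.02 and 3.25. GDF15 was higher with shCENPA2 by 0.71 (adjusted p = 0.0142), from 5.22 and 5.93. In all 4, both libraries of shCENPA2 lay on the same side of both libraries of shCENPA1. With 2 libraries per shRNA, no library could be tested for standing apart from its group.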

How the results depend on the processing

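The members' fold changes and counts were recomputed under 19 alternatives: lanes counted as 4 replicates, either lane alone, each library left out in turn, the library number as a block, other filters and constants (0.1 and 1 added to RPKM), median-centred or quantile-normalized libraries, limma without the trend or on the groups compared only, and voom on recovered reads. The balances of LMNB1 to LMNA and HMGB2 to HMGB1 were recomputed under 11 of these, and the nearest profiles, promoter matches and positions among cell cycle genes under none. Where a library was left out, the lone library of its shRNA was assumed to vary like the other groups. LMNB1 and TMPO kept both calls against shNT in 19 of 19, as did HMGB1, HMGB2 and LBR with shCENPA2. The number of members lower with shCENPA1 was 2 without the trend and 2 to 5 when a library was left out. Members 2-fold lower with both shRNAs numbered 0 with 1 added to RPKM, 0 with median-centred libraries and 0 to 1 when a library was left out. Members that differed between the shRNAs numbered 5 with lanes as replicates, 0 without the trend and 0 to 1 when a library was left out. With lanes as replicates, lane noise stands in for the spread between libraries. Members lower with shCENPA2 stayed between 5 and 7, and 0 were higher in any alternative. LMNA passed with shCENPA2 in 3 of 19.

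The library number as a replicate block gave 4 members lower with shCENPA1 (LBR was lost), 6 lower with shCENPA2 and 0 that differed between the shRNAs (HMGB2, adjusted p = 0.0548). The labels do not say whether the numbers pair the libraries. Same-numbered libraries of 2 shRNAs had correlations of their deviations of -0.06, -0.10 and -0.15. No strong shift shared by number was thus seen, which does not settle how the libraries were prepared.

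EMD and BANF1 passed no test, and the direction was not stable for EMD, nor for BANF1 with shCENPA1 or between the shRNAs. BANF1 with shCENPA2 kept its direction in 19 of 19, from -0.35 to -0.09. EMD with shCENPA1 was -0.03 in the first lane alone and ran from -0.08 to 0.11 when a library was left out, EMD with shCENPA2 from -0.15 to 0.04, EMD between the shRNAs from -0.17 to 0.03, BANF1 with shCENPA1 from -0.25 to 0.12 and BANF1 between the shRNAs from -0.34 to 0.03. The cause of these changes was not tested.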
